A study of Mus musculus with 6 samples.

Results

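Acute-phase and liver-type secreted proteins are represented here by 9 genes, Hp, Hpx, Cp, Pon1, Lcn2, Saa3, Ahsg, Lrg1 and Orm1, out of 54532 gene identifiers with a deposited expression value. The genes were matched by symbol to the Ensembl identifiers of GENCODE release M21, and all 9 were in the table, none being absent. They were chosen by their measured difference between HFpEF and Chow in these same libraries, so their values are given as a description and carry no test. RNA was sequenced from the hearts of 6 male C57BL/6 mice that were 6 to 8 weeks old at the start, with 1 library per mouse. The labels name the tissue as heart, and the study's methods name left ventricular myocardium. The 3 HFpEF mice were kept for 12 weeks on a high-fat diet (60% of kcal as fat) while drinking water that contained 0.5 g/L L-NAME, which blocks nitric oxide synthase. The 3 Chow mice received standard chow and plain water for the same 12 weeks. The labels name no transgene or engineered allele, and the diet and L-NAME were always given together, so their separate contributions cannot be told apart.

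The acute-phase response is the change in circulating proteins that follows infection, injury or inflammation. Interleukin-6, interleukin-1 and related cytokines act on hepatocytes through STAT3, C/EBP and NF-κB transcription factors, and the liver then secretes more of the positive acute-phase proteins and less of the negative ones, such as albumin and transthyretin. Several of these proteins are also made outside the liver, including haptoglobin, serum amyloid A3 and lipocalin 2, which are produced by adipocytes, macrophages and epithelial cells in inflamed tissue.

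Depth and makeup differed between libraries and are given before the results. Reads recovered from the deposited values totalled 15574914, 13076772 and 13257173 for the Chow mice, listed here and below from replicate 1 to 3, and 13461735, 16027084 and 15196287 for the HFpEF mice. HFpEF replicate 3 stood apart from the other libraries. On the first principal component of the tested genes, which held 42.3% of the variance, it lay at 75.5, against 11.5 and 12.7 for the other HFpEF libraries and -35.8 to -31.7 for Chow. Mitochondrially encoded genes took 7.17% of its reads, against 22.6% and 20.1% in HFpEF replicates 1 and 2 and 24.8% ± 1.03 (SD, n = 3) in Chow. Ratios of group means without HFpEF replicate 3 are given beside those of all libraries for the genes read in Chow. The library sizes implied by the deposited FPKM were 14239712, 11734336 and 12093541 for Chow and 13847565, 16942925 and 19316914 for HFpEF, which are not the summed reads. Levels below are FPKM as deposited. Scaled to the recovered reads instead, an alternative added after the values were seen, the median log2 fold change of all tested genes was 0.28, against -0.01, and 85.8% of the genes with an unadjusted limma p under 0.05 were higher in HFpEF, against 43.7%. Scaled to the reads of nuclear genes the values were 0.13 and 74.2%. Unless a scaling is named, levels and their ratios are for FPKM as deposited. The log2 differences, limma results and values over all tested genes are then for FPKM rescaled by the median of ratios (factors of 1.003 to 1.006).

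The stretches before the transcription start are shown for a pair of genes with few or no reads in Chow and opposite order among the HFpEF libraries, Pon1 and Saa3, and for the gene with the highest level in Chow, Lrg1. They are the RefSeq promoter sequences on GRCm38.p6, 5′ to 3′ on the strand of the gene, which is the minus strand for all of them. Each was ended before the GENCODE gene start, so that no base transcribed by that annotation is included. Capitals mark the letters TTNNGCAA on either strand, a core of the C/EBP binding motif.
Pon1, chr6:5193947-5194196: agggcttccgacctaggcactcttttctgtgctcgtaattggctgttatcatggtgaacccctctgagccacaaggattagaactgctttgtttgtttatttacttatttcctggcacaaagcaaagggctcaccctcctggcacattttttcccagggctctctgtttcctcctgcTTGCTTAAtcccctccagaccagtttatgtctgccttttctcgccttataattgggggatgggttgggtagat
Saa3, chr7:46715701-46715926: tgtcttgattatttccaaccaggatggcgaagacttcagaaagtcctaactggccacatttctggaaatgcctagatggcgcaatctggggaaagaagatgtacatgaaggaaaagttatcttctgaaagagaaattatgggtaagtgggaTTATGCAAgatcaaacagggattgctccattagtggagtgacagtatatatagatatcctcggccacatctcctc
Lrg1, chr17:56122002-56122196: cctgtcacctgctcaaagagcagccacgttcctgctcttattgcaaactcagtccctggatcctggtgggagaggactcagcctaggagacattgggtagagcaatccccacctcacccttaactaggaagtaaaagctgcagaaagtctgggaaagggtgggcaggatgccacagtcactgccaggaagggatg
The match in Pon1 begins 73 bases before its RefSeq start and the match in Saa3 begins 99 bases before. The Lrg1 window held none.

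Promoters of 7 of the 9 genes were matched in the RefSeq table, as 8 windows of 250 bases before the start because Cp has a pair of starts. Searched on both strands, TTNNGCAA occurred in 6 of the 8 windows, those of Pon1, Saa3, Lcn2, Ahsg and Hpx and 1 of the windows of Cp, and in 9.56% of all 32851 windows of this length. The RefSeq starts of Lcn2 and Ahsg lie 513 and 738 bases inside the GENCODE gene, so their windows lie wholly inside it. The Cp match, 70 bases before a start that lies 195 bases inside, is also within its gene. The count thus includes annotated gene sequence, unlike the stretches printed above. The STAT letters TTCNNNGAA occurred in none of the 8 windows and in 7.02% of all windows. With no STAT match in these windows, overlap between the motifs did not arise. These are matches of letters, not measured binding.

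FPKM (fragments per kilobase of exon per library size, with the scaling the authors applied) allows levels to be set side by side between genes. In Chow hearts the order of mean FPKM was Lrg1, Cp, Ahsg, Hp, Lcn2, Hpx and Saa3, with Pon1 and Orm1 listed at 0. Lrg1 and Cp made up 92.1% to 94.9% of the summed FPKM of the 9 genes in each Chow library. Ahsg and Hp overlapped in that order, as did Hp and Lcn2, whereas every library of Lrg1 was above those of Cp, and every library of Cp above those of Ahsg. In HFpEF hearts the order was Lrg1, Hp, Cp, Ahsg, Saa3, Lcn2, Pon1, Orm1 and Hpx. Hp overlapped both Lrg1 and Cp there, Ahsg was separated from its neighbours, and each gene from Saa3 down to Hpx overlapped the next. Hp alone was 19.6%, 22.7% and 41.0% of the summed FPKM in replicates 1, 2 and 3. The summed FPKM was 35.8, 36.6 and 38.1 in the Chow libraries and 47.8, 59.7 and 61.5 in the HFpEF libraries. Without Lrg1 and Cp the sums were 2.21, 1.86 and 3.03 in Chow and 17.3, 21.4 and 31.8 in HFpEF.

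**Figure D1:**
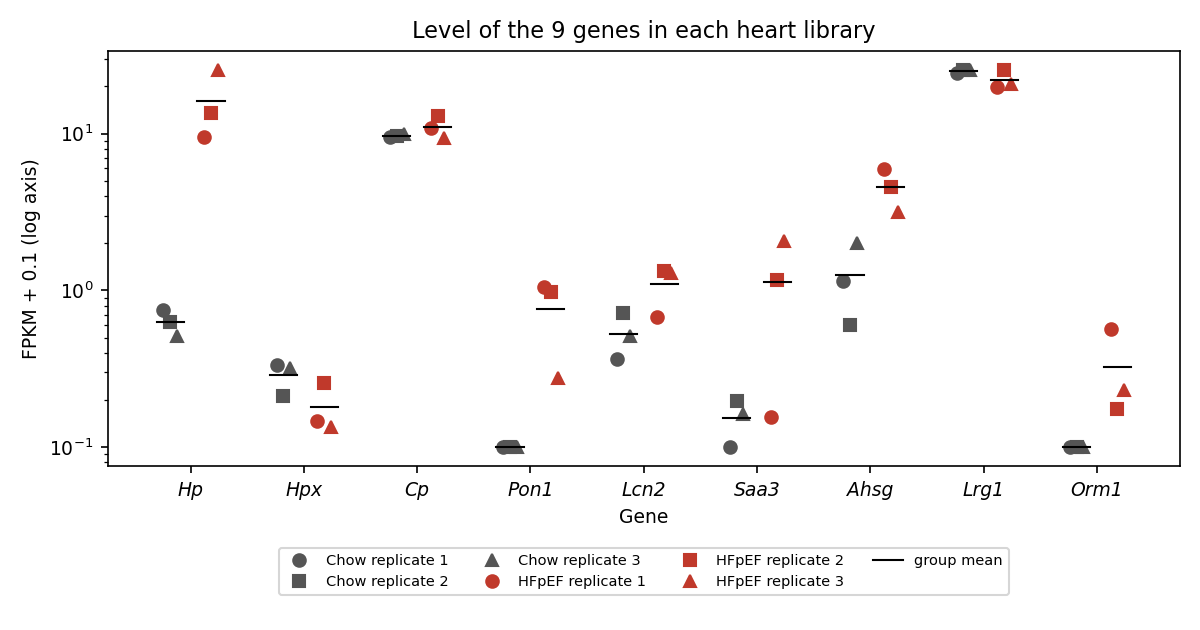
FPKM + 0.1 of the 9 genes on a log axis, with 1 point per library (grey for Chow, red for HFpEF, the marker shape for the replicate) and a line at each group mean. Hp moved from 0.412 to 0.656 FPKM in Chow to 9.40 to 25.2 FPKM in HFpEF, whereas Lrg1 lay between 19.8 and 25.5 FPKM in all 6 libraries.

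For 4 of the 9 genes (Hp, Pon1, Ahsg and Orm1) the lowest HFpEF library exceeded the highest Chow library, and for 0 the reverse held. Among the 14225 genes that passed the minimum of 0.5 FPKM in at least 3 libraries, these shares were 15.6% and 19.7%. Scaled to recovered reads, in total or of nuclear genes, Cp and Lcn2 joined these genes, which made 6 of 9. On those scales 37.2% and 26.8% of the tested genes had every HFpEF library above Chow. The selection of the genes used this contrast, so nothing is read from the count. Hp, Cp, Ahsg, Lrg1 and Lcn2 passed the minimum and Pon1, Saa3, Orm1 and Hpx did not.

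Haptoglobin, encoded by Hp (ENSMUSG00000031722, chromosome 8 from 109575128 to 109579172, GRCm38), binds free hemoglobin released from red blood cells. Chow hearts had 0.656, 0.531 and 0.412 FPKM, and HFpEF hearts had 9.40, 13.5 and 25.2 FPKM. The groups did not overlap, and HFpEF replicate 3 was the highest. The means were 0.533 ± 0.122 (SD, n = 3) and 16.0 ± 8.20 (SD, n = 3) FPKM, a ratio of 30.1, which was 21.5 without HFpEF replicate 3. The reads behind these values were 15, 10 and 8 in Chow and 209, 368 and 782 in HFpEF. Set against the mean FPKM of all tested genes, Hp moved from percentile 4.9 in Chow to percentile 84.2 in HFpEF.

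Hemopexin (Hpx, ENSMUSG00000030895, chromosome 7 from 105591613 to 105600137) binds heme and is, like haptoglobin, a positive acute-phase protein of the liver. It had 5, 2 and 4 reads in Chow and 1, 4 and 1 reads in HFpEF, or 0.190 ± 0.066 and 0.0801 ± 0.0674 FPKM (SD, n = 3). The ratio of mean FPKM was 0.423, and it was 0.543 without HFpEF replicate 3. The groups overlapped, and the ratio of summed reads, corrected for the library denominators, was 0.414 with a 95% exact conditional binomial interval of 0.126 to 1.22. With so few reads, nothing is read from the difference in Hpx. Hpx and Hp, which act on the products of the same red blood cell breakdown, thus had HFpEF means of 0.0801 and 16.0 FPKM.

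Ceruloplasmin (Cp, ENSMUSG00000003617, chromosome 3 from 19957054 to 20009145) is a copper-carrying ferroxidase. Its FPKM was 9.46, 9.51 and 9.78 in Chow and 10.8, 12.8 and 9.21 in HFpEF. On this scale the groups overlapped, with HFpEF replicate 3 below every Chow library. The ratio of means was 1.14, and it was 1.23 without HFpEF replicate 3. The position of that library depended on the scaling. Scaled to recovered reads, Cp was 8.64, 8.53 and 8.92 in Chow and 11.1, 13.5 and 11.7 in HFpEF, and the groups did not overlap. A stretch of 108 exonic bases of Cp, 1.13% of its exons, overlaps Hps3 on the other strand, whose FPKM was 1.85 to 2.98, and the counting was not stated to use strand.

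Paraoxonase 1 (Pon1, ENSMUSG00000002588, chromosome 6 from 5168090 to 5193946) is an esterase carried on high-density lipoprotein and a negative acute-phase protein. It had 0 reads in all Chow libraries and 38, 43 and 10 reads in HFpEF replicates 1, 2 and 3. Its FPKM in HFpEF was 0.947, 0.876 and 0.179. The groups did not overlap, but HFpEF replicate 3 was the lowest of the HFpEF libraries, the reverse of Hp. Against an upper limit of 3 reads in each Chow library, which a count of 0 permits (0.0822 FPKM), the HFpEF mean of 0.667 ± 0.425 FPKM (SD, n = 3) was at least 8.12-fold higher. Such limits and the intervals given here cover counting error only. The other paraoxonases, Pon2 and Pon3, were present in both groups at 5.21 to 6.06 and 4.73 to 6.78 FPKM over the 6 libraries, with log2 fold changes of -0.01 (SE 0.10) and 0.14 (SE 0.14) from limma, which were 0.28 and 0.43 scaled to recovered reads.

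Serum amyloid A3 (Saa3, ENSMUSG00000040026, chromosome 7 from 46711998 to 46715700) is the amyloid A protein of adipose tissue and macrophages. It had 0, 3 and 2 reads in Chow and 2, 47 and 99 reads in HFpEF. Its FPKM in HFpEF was 0.0554, 1.06 and 1.97, and 0, 0.0981 and 0.0635 in Chow. HFpEF replicates 2 and 3 lay above every Chow library, whereas HFpEF replicate 1 lay within the Chow range. The ratio of summed reads was 22.5 (95% exact conditional binomial interval 9.42 to 70.3), an interval that leaves out the spread between mice. The ratio of mean FPKM was 19.1, and without HFpEF replicate 3 it was 10.4. The liver-type amyloid genes Saa1, Saa2 and Saa4 were listed at 0 in all 6 libraries.

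Lipocalin 2 (Lcn2, ENSMUSG00000026822, chromosome 2 from 32384633 to 32388252) withholds iron from bacteria by binding siderophores. Its FPKM was 0.268, 0.617 and 0.410 in Chow and 0.578, 1.24 and 1.18 in HFpEF. Only HFpEF replicate 1 lay within the Chow range, the same library as for Saa3. The means were 0.432 ± 0.176 and 1.00 ± 0.366 FPKM (SD, n = 3), a ratio of 2.32, which was 2.10 without HFpEF replicate 3. When the values were scaled to recovered reads, HFpEF replicate 1 (0.595) was just above the highest Chow library (0.554).

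Fetuin-A (Ahsg, ENSMUSG00000022868, chromosome 16 from 22891277 to 22899449) is a liver glycoprotein that inhibits calcification and a negative acute-phase protein. Its FPKM was 1.05, 0.504 and 1.92 in Chow and 5.85, 4.46 and 3.09 in HFpEF. The groups did not overlap. The means were 1.16 ± 0.713 and 4.47 ± 1.38 FPKM (SD, n = 3), a ratio of 3.85, which was 4.45 without HFpEF replicate 3. Its paralog Fetub had 0.322, 0.391 and 0.126 FPKM in Chow and 1.22, 0.271 and 0.501 FPKM in HFpEF, so its groups overlapped.

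Leucine-rich alpha-2-glycoprotein (Lrg1, ENSMUSG00000037095, chromosome 17 from 56119678 to 56122001) is a secreted modulator of TGF-β signalling through endoglin in endothelial cells. Its FPKM was 24.1, 25.2 and 25.3 in Chow and 19.8, 25.5 and 20.5 in HFpEF. The groups overlapped, with HFpEF replicate 2 above every Chow library and the other HFpEF libraries below. The ratio of means was 0.882, and it was 0.910 without HFpEF replicate 3. The ratio was 1.08 when scaled to recovered reads, so its direction depended on the scaling.

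Orosomucoid 1, the positive acute-phase protein α1-acid glycoprotein (Orm1, ENSMUSG00000039196, chromosome 4 from 63344560 to 63348163), was not read in Chow (0 reads per library) and had 5, 1 and 2 reads in HFpEF. The mean count in HFpEF was within the 3-read limit, so no fold is given. Orm2 had 6 or fewer reads and Orm3 had 2 or fewer reads in any library. Orm1, Orm2 and Orm3 are near-identical copies, so the assignment of these few reads among them is uncertain.

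**Figure D2:**
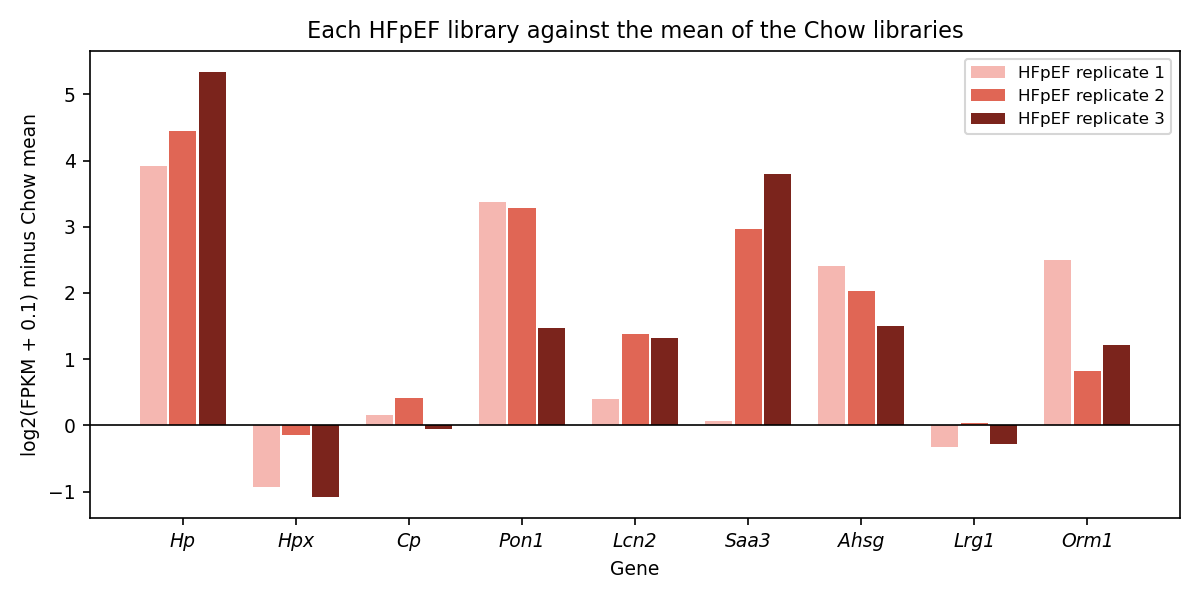
Difference of log2(FPKM + 0.1) between each HFpEF library and the mean of the Chow libraries, with 1 bar per library and gene. Hp and Saa3 were highest in replicate 3 (5.34 and 3.80), and Pon1 and Ahsg were highest in replicate 1 (3.38 and 2.40).

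The 9 genes did not share 1 order among the HFpEF mice. Hp and Saa3 were highest in replicate 3 and lowest in replicate 1. Pon1 and Ahsg had the opposite order. On the log2(FPKM + 0.1) scale the differences from the Chow mean in replicates 1, 2 and 3 were 3.92, 4.44 and 5.34 for Hp, 0.07, 2.97 and 3.80 for Saa3, 3.38, 3.28 and 1.47 for Pon1, and 2.40, 2.02 and 1.51 for Ahsg. This scale understates the change of genes with low values.

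Patterns over the 6 libraries were compared on the same scale with 1511 tested genes whose log2 values ranged over at least 2. The genes most like Hp were Gm10037, the small nucleolar RNA gene Gm25965 and the microRNA gene Mir185, with Pearson r of 0.99 for each. They were low in all libraries, at no more than 1.22, 4.45 and 1.59 FPKM. Ahsg was most like Dkk3 (r = 0.98), Peg3 (r = 0.96) and Plagl1 (r = 0.96). Dkk3 encodes a secreted glycoprotein of the Dickkopf family and had 0.941, 0.584 and 10.04 FPKM in Chow and 148.1, 74.1 and 40.7 FPKM in HFpEF. Lcn2 was most like Lat2 (r = 0.97), Gm23608 (r = 0.93) and Trac (r = 0.93), the last the constant region of the T cell receptor alpha chain. Cp was most like Mylf-ps (r = 0.97), Ptgfr (r = 0.96) and Cybrd1 (r = 0.96), and Lrg1 was most like mt-Td, Gm12193 and Gm49207 (r = 0.98 for each). The points share libraries and depth, and no p is given.

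The remaining positive acute-phase genes, with the 9 genes left out, were compared to ask whether other genes of the response differed. Of 39 such genes, 11 passed the FPKM minimum and 11 were listed at 0 in every library, among them Crp, Apcs, the fibrinogen genes Fga, Fgb and Fgg, and plasminogen (Plg). With limma, 7 of the 11 tested genes had an unadjusted p under 0.05 and higher expression in HFpEF and 0 had lower expression, against 10.2% and 13.1% of all tested genes. The median log2 fold change was 0.88, against -0.01 over all genes tested. None of the 11 genes was a DEG (at least 4-fold different, or 2 on the log2 scale, with a Benjamini-Hochberg adjusted p under 0.05), a call made for 0.0562% of the tested genes. Without HFpEF replicate 3, 6 genes were higher. Scaled to recovered reads and to nuclear reads, 7 were higher on each scale, where 25% and 18.7% of all tested genes were.

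Of these genes, 6 with non-overlapping groups are given here. C4b, a complement component, had 5.55, 7.38 and 6.52 FPKM in Chow and 20.4, 41.0 and 45.3 FPKM in HFpEF. Its log2 fold change was 2.37 (SE 0.31, unadjusted p = 0.000163, adjusted p = 0.0619 from limma), and the groups did not overlap. Itih4, an inter-alpha-trypsin inhibitor heavy chain, had 0.286, 0.531 and 0.314 FPKM in Chow and 7.54, 1.31 and 5.21 FPKM in HFpEF, with a log2 fold change of 3.05 (SE 0.62, adjusted p = 0.103 from limma). Its order among HFpEF mice was thus neither that of Hp nor that of Pon1. Serpina3n, a secreted serine protease inhibitor, had 4.29 to 6.13 FPKM in Chow and 9.59, 11.5 and 26.2 FPKM in HFpEF (log2 fold change 1.39, SE 0.38, adjusted p = 0.126 from limma). C3, the central complement component, had 70.6 to 84.7 FPKM in Chow and 87.3, 373.8 and 203.6 FPKM in HFpEF (log2 fold change 1.30, SE 0.49, adjusted p = 0.188 from limma). The metallothionein gene Mt2 and the C1 inhibitor gene Serping1 had log2 fold changes of 1.40 (SE 0.45) and 0.85 (SE 0.16), both with non-overlapping groups.

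Among 52 negative acute-phase and other liver-type secreted genes, 9 passed the FPKM minimum and 18 were listed at 0 in every library, including Alb, Ambp, F2, Hrg and Kng1. Of these 9, Rbp4 had no Chow library at the minimum, so it passed only through HFpEF and no test of it is given. With limma, 1 of the other 8 genes had an unadjusted p under 0.05 with higher expression in HFpEF and 2 with lower expression, against 10.2% and 13.1% of all tested genes, and none was a DEG. The median log2 fold change of these 8 was 0.30. Rbp4, the retinol carrier, had 0.271, 0.263 and 0.0638 FPKM in Chow and 4.62, 1.41 and 2.79 FPKM in HFpEF, and the groups did not overlap. Apoe, the ligand for lipoprotein uptake, had 178.3 to 251.7 FPKM in Chow and 346.1, 448.9 and 935.2 FPKM in HFpEF (log2 fold change 1.38, SE 0.38, adjusted p = 0.126 from limma). The lower genes were Cpn2, a carboxypeptidase N subunit with 1.60 to 1.63 FPKM in Chow and 0.540, 1.10 and 0.648 FPKM in HFpEF, and Vtn, vitronectin, with 15.8 to 17.5 FPKM in Chow and 8.64, 12.7 and 13.6 FPKM in HFpEF. Their log2 fold changes were -1.05 (SE 0.27) and -0.54 (SE 0.18). Scaled to recovered reads, Apoe, Trf, Pon3 and Angptl8 of the 8 were higher at an unadjusted limma p under 0.05 and Cpn2 was lower. Over all tested genes, 25% were higher and 4.15% lower at that p. Vtn no longer passed (unadjusted p = 0.332 from limma).

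The signalling genes of the acute-phase response comprised cytokines, receptors, kinases and transcription factors. Of 43 genes, 32 were tested. With limma, 11 had an unadjusted p under 0.05 with higher expression in HFpEF and 1, Jak1, with lower expression, against 10.2% and 13.1% of all tested genes, and none was a DEG. The median log2 fold change was 0.46. The count of higher genes depended on the control libraries, being 4, 5 and 4 without Chow replicates 1, 2 and 3, and it was 18, 7 and 10 without HFpEF replicates 1, 2 and 3. Scaled to recovered reads it was 22, with 0 lower, where 25% of all tested genes were higher. With nuclear reads it was 20, with 0 lower, where 18.7% were higher. The call for Jak1 was also lost without any 1 of Chow replicates 1 and 2 and HFpEF replicates 1 and 2.

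Among the transcription factors, Cebpa had 5.22, 4.56 and 4.49 FPKM in Chow and 10.1, 13.5 and 19.9 FPKM in HFpEF, the order of Hp among the HFpEF mice. Its log2 fold change was 1.53 (SE 0.24, adjusted p = 0.0819 from limma). Cebpd had 4.35 to 6.00 FPKM in Chow and 6.54, 9.03 and 12.1 FPKM in HFpEF (log2 fold change 0.75, SE 0.24). Socs3, the feedback inhibitor induced by STAT3, had 1.52 to 2.21 FPKM in Chow and 2.62, 5.84 and 16.6 FPKM in HFpEF (log2 fold change 1.67, SE 0.62, adjusted p = 0.185 from limma). Nfkbiz, an NF-κB cofactor, and the receptors Il1r1 and Tlr2 were also highest in HFpEF replicate 3, at 6.14, 14.7 and 7.70 FPKM, against 1.34 to 1.75, 3.25 to 3.57 and 1.65 to 2.54 FPKM in Chow. Their log2 fold changes were 1.13 (SE 0.35), 1.04 (SE 0.43) and 0.96 (SE 0.38).

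**Figure D3:**
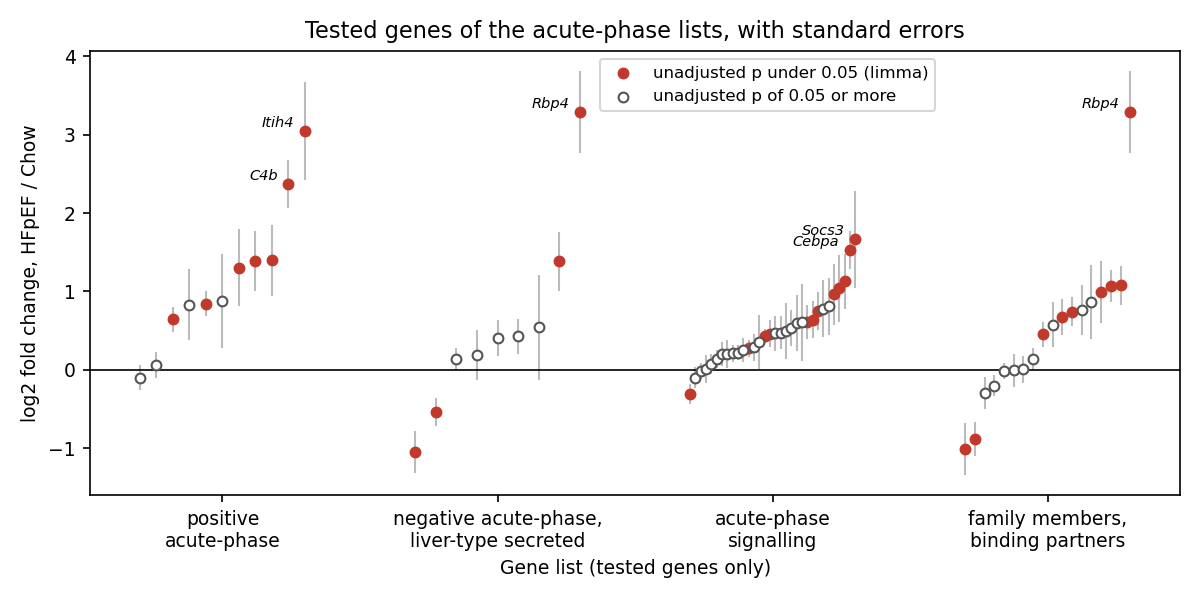
log2 fold change of HFpEF over Chow with its standard error for the tested genes of the 4 lists, ordered by value within each list, filled where the unadjusted limma p was under 0.05. Rbp4 (3.29, in both lists that hold it) passed the minimum only through HFpEF libraries, so its position and fill are not read as a test. The highest of the other points is Itih4 (3.05), and none of the genes shown was a DEG.

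Receptors and partners of the 9 proteins were examined last. Of 31 such genes, 18 passed the minimum, Rbp4 again only through HFpEF. Of the other 17, 6 had an unadjusted p under 0.05 with higher expression in HFpEF and 2 with lower expression by limma, against 10.2% and 13.1% of all tested genes, and none was a DEG. Their median log2 fold change was 0.45. The alternatives were run only with Rbp4 in the list, so no count of higher genes is given for them. That count moved by over 1.5 times without Chow replicate 1, without Chow replicate 3 and when scaled to recovered reads. The lower genes numbered 1 without Chow replicate 2, Chow replicate 3 or HFpEF replicate 1. When scaled to recovered reads the lower genes numbered 1, against 4.15% of all tested genes. The haptoglobin-hemoglobin receptor gene Cd163 had 5.65 to 6.20 FPKM in Chow and 6.82, 10.1 and 8.06 FPKM in HFpEF, with a log2 fold change of 0.45 (SE 0.16). Lrp1, the receptor for hemopexin-heme, had 15.6 to 17.7 FPKM in Chow and 31.4, 26.7 and 52.8 FPKM in HFpEF, with a log2 fold change of 1.08 (SE 0.25, adjusted p = 0.115 from limma). Slc22a17, a lipocalin 2 receptor, had 0.970 to 1.55 FPKM in Chow and 2.64 to 3.00 FPKM in HFpEF, with a log2 fold change of 1.07 (SE 0.20, adjusted p = 0.0977 from limma), and Lrp2, another, was at 0.717 FPKM or less and was not tested. Hmox1, which degrades heme, had a log2 fold change of 0.99 (SE 0.40), and Tgfbr2, a TGF-β receptor, 0.74 (SE 0.18). Tfrc, the transferrin receptor, was lower, with 7.97 to 12.9 FPKM in Chow and 4.54 to 6.60 FPKM in HFpEF (log2 fold change -0.88, SE 0.22, adjusted p = 0.119 from limma). The ceruloplasmin paralog Heph had a log2 fold change of 0.58 (SE 0.28), the receptor Scarb1 -0.20 (SE 0.13; 0.09 scaled to recovered reads), and Hephl1, Fpr2, Asgr1 and Asgr2 were too low to test.

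Markers of other cell types were measured in the same libraries, since in bulk tissue fewer cells of a type and less RNA per cell cannot be told apart. Of 20 hepatocyte markers, Alb, Cyp3a11, Cyp2c29, Hnf4a, Serpina1c and Ugt2b5 were listed at 0 in all 6 libraries, and 0 had groups that did not overlap. Their summed FPKM was 6.60, 6.88 and 8.86 in Chow and 7.02, 10.8 and 5.99 in HFpEF, led by Fah, Apoa2, Tat and Slc10a1. The highest sum was that of HFpEF replicate 2 and the lowest that of HFpEF replicate 3, so the groups overlapped. Without Fah, which carried most of the sum, the sums were 1.22, 0.653 and 2.45 in Chow and 1.39, 4.18 and 1.30 in HFpEF, so the groups still overlapped and the lowest was Chow replicate 2. With either scaling to reads the groups also overlapped, but the lowest sum was that of Chow replicate 1. The other 14 markers had reads in at least 1 library. The part of hepatocytes in the levels of the 9 genes was not tested.

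Adipocyte markers were measured next. Of 18 genes, 11 were above the Chow range in all HFpEF libraries and 1, Fabp4, was below it in all, against 15.6% and 19.7% of all tested genes. Of the 13 that passed the minimum, 7 (Adipoq, Cfd, Cidec, Plin1, Car3, Pck1 and Adrb3) had no Chow library at it and so passed only through HFpEF, and no test of them is given. Of the other 6, 0 were higher at an unadjusted p under 0.05 by limma and 1, Fabp4, was lower, and their median log2 fold change was -0.18. Fabp4 overlapped between the groups when scaled to recovered reads. The summed FPKM was 142.2, 155.8 and 161.3 in Chow and 233.8, 241.4 and 149.9 in HFpEF, with Fabp4 as the most abundant gene, followed by Plin4, Cfd and Cidea. The sum of HFpEF replicate 3 lay within the Chow range for FPKM as deposited. With either scaling to reads it lay above every Chow library, at 190.5 against at most 147.1 (recovered reads) and 205.2 against at most 193.7 (nuclear reads). Over the 12 adipocyte markers chosen for having under 0.5 FPKM in every Chow library, a choice that fixes the Chow side, the HFpEF sums were 105.8, 105.1 and 38.4 FPKM. HFpEF replicate 3 was the lowest of the HFpEF libraries, the position it had for Pon1 and Ahsg and not for Hp or Saa3. The ratio of FPKM to that of the lipid droplet gene Plin1 in HFpEF replicates 1, 2 and 3 was 0.194, 0.170 and 0.160 for Pon1, 1.20, 0.863 and 2.77 for Ahsg, 1.93, 2.62 and 22.6 for Hp, and 0.0114, 0.206 and 1.77 for Saa3. Against Cfd, the adipsin gene, the ratios were 0.0268, 0.0232 and 0.00782 for Pon1, 0.166, 0.118 and 0.135 for Ahsg, 0.266, 0.358 and 1.10 for Hp, and 0.00157, 0.0281 and 0.0861 for Saa3. Against Adipoq they were 0.142, 0.140 and 0.0934 for Pon1 and 0.874, 0.715 and 1.61 for Ahsg, and against Car3 0.0278, 0.0311 and 0.0228 for Pon1 and 0.171, 0.158 and 0.394 for Ahsg. By the highest over the lowest ratio, Pon1 varied less than Ahsg over the HFpEF mice against Plin1, Adipoq and Car3, and more against Cfd. Plin1, Cfd, Adipoq and Car3 are among the 7 markers that passed the minimum only through HFpEF. Pon1 had only 10 reads in HFpEF replicate 3, so nothing is read from these ratios. The part of adipocytes in the levels of the 9 genes was not tested.

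Macrophage, fibroblast and mesothelial markers were counted in the same way. With limma, 5 of 12, 6 of 10 and 7 of 11 tested genes had an unadjusted p under 0.05 with higher expression in HFpEF and 0 of each with lower expression, against 10.2% and 13.1% of all tested genes. The higher genes numbered 8, 9 and 11 when scaled to recovered reads, where 25% of all tested genes were higher, and 7, 7 and 10 when scaled to nuclear reads, where 18.7% were. The macrophage count was 2, 2 and 1 without Chow replicates 1, 2 and 3, and 12, 2 and 5 without HFpEF replicates 1, 2 and 3. The fibroblast count was 3 without Chow replicate 2 or 3 and 9 without HFpEF replicate 3, and the mesothelial count was 3, 4 and 4 without Chow replicate 2, Chow replicate 3 and HFpEF replicate 2. Of 12 macrophage markers, 6 were above the Chow range in all HFpEF libraries, as were 15.6% of all tested genes, with summed FPKM of 304.3, 312.7 and 251.3 in Chow and 311.3, 421.8 and 991.2 in HFpEF, led by Lyz2 and C1qa, C1qb and C1qc. With either scaling to reads, 9 of the 12 were so. The macrophage sum of HFpEF replicate 1 lay within the Chow range for FPKM as deposited, and above it when scaled to recovered reads. Of 10 fibroblast markers, 8 were so, and the sums were 916.5, 805.4 and 730.0 in Chow and 1355, 1417 and 6235 in HFpEF, led by Gsn, Col1a1, Col3a1 and Dcn. Of 12 mesothelial markers, 9 were so, and the sums were 42.3, 25.7 and 39.1 in Chow and 58.3, 175.4 and 83.4 in HFpEF, led by Msln, Upk3b, Gpm6a and Upk1b. Scaling to recovered reads and to nuclear reads gave 9 and 8 such fibroblast markers and 11 and 10 such mesothelial markers, where 37.2% and 26.8% of all tested genes were so. Macrophage and fibroblast sums were highest in HFpEF replicate 3, as Hp and Saa3 were, and the mesothelial sum in HFpEF replicate 2, as C3 was. With 3 HFpEF libraries, a shared highest library does not tie a gene to a cell type. None of these markers was a DEG, and their part in the levels of the 9 genes was not tested.

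Markers of neutrophils, which store lipocalin 2 in their granules, were low. Ngp, Elane and Ly6g were listed at 0 in all libraries, 0 of 13 neutrophil markers had groups that did not overlap, and the summed FPKM was 1.94, 4.25 and 1.40 in Chow and 1.39, 2.63 and 4.55 in HFpEF, led by Csf3r, S100a9, S100a8 and Retnlg. Epithelial markers summed to 0.135 to 1.03 FPKM in Chow and 0.898, 2.65 and 2.10 FPKM in HFpEF, led by Krt14, Wfdc2, Cdh1 and Epcam. Of the 8 genes, 1 (Krt14) was above the Chow range in all HFpEF libraries, against 15.6% of all tested genes, and Krt5, Sftpc and Scgb1a1 were at 0. Red blood cell markers, led by Hbb-bs, Hba-a1, Hba-a2 and Hbb-bt, summed to 279.8, 1592 and 500.6 FPKM in Chow and 1813, 478.1 and 585.2 FPKM in HFpEF, with 0 of 7 genes separated by group. The highest sums were those of HFpEF replicate 1 and Chow replicate 2, which was not the order of Hp.

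Summed ventricular cardiomyocyte markers were lower in HFpEF on every scaling. All 10 genes were below every Chow library (7 when scaled to recovered reads and 8 to nuclear reads), against 19.7% (6.83% and 10.7%) of all tested genes. With limma, 6 of the 10 were lower at an unadjusted p under 0.05, against 13.1% of all tested genes. The sums were 20450, 21310 and 22070 FPKM in Chow and 14280, 14820 and 9736 FPKM in HFpEF, led by Actc1, Mb, Myh6 and Myl3. Of 9 endothelial markers 5 were below every Chow library, with sums of 268.7, 290.1 and 256.0 FPKM in Chow and 220.9, 209.9 and 224.7 FPKM in HFpEF, led by Cdh5, Pecam1, Tie1 and Egfl7. The endothelial genes below every Chow library numbered 2 when scaled to recovered reads, with 1 above, and 3 when scaled to nuclear reads. The endothelial sums overlapped between the groups with either scaling, and to recovered reads they were 233.5 to 260.4 in Chow and 221.9 to 285.7 in HFpEF. Atrial cardiomyocyte markers, a list added after the values were seen, differed by library and not only by group. Their summed FPKM was 28.8, 31.1 and 559.2 in Chow and 2493, 3889 and 30.3 in HFpEF, led by Myl7, Nppa, Sln and Myl4. Of 8 genes, 2 (Bmp10 and Nr2f1) were above the Chow range in all HFpEF libraries, against 15.6% of all tested genes. Bmp10 was at 0 in Chow and at 148.2, 0.0263 and 0.0115 FPKM in HFpEF, so its separation rests on values near 0. Chow replicate 3 was the highest Chow library for both the atrial sum and Ahsg. For FPKM as deposited, HFpEF replicate 3 had an atrial sum in the range of Chow replicates 1 and 2. Its Ahsg level was above all Chow libraries. Its atrial sum was 38.5, against 26.3 and 27.9 in Chow replicates 1 and 2, when scaled to recovered reads, and 41.5, against 34.8 and 37.7, when scaled to nuclear reads, so it lay above that pair of libraries and below Chow replicate 3 on both. The part of atrial tissue in the levels of the 9 genes was not tested.

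**Figure D4:**
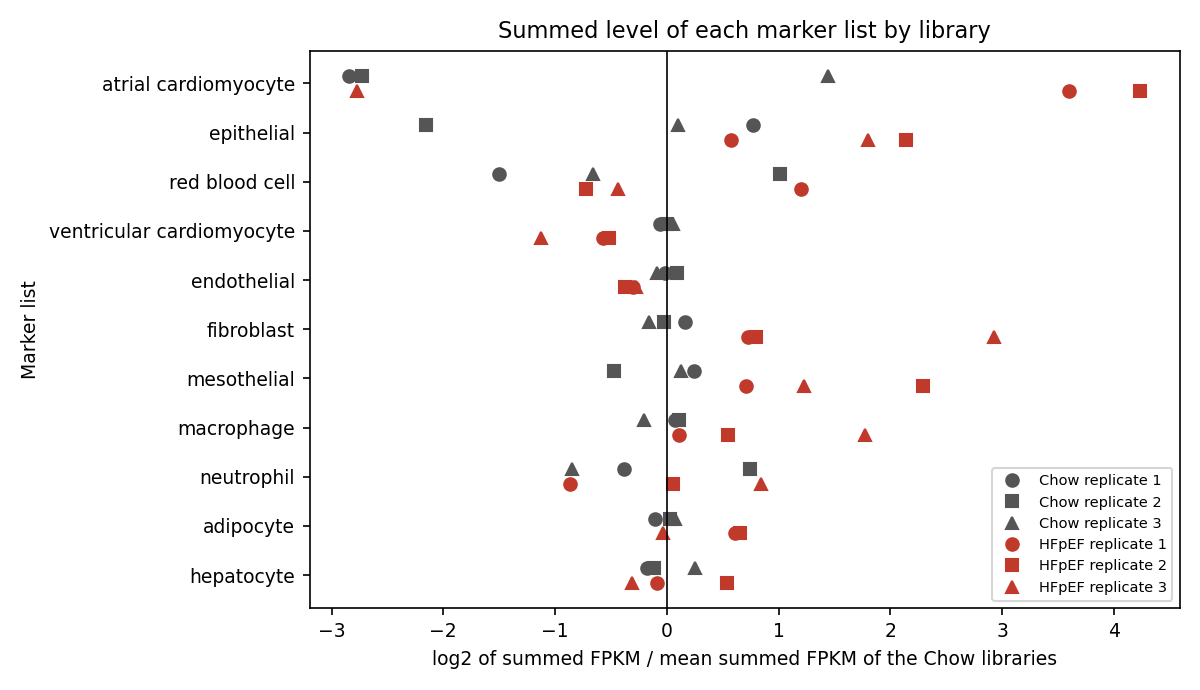
log2 of the summed FPKM of each marker list in each library relative to the mean sum of the Chow libraries (grey for Chow, red for HFpEF, the marker shape for the replicate). HFpEF replicate 3 was highest for macrophage (991.2 FPKM) and fibroblast (6235 FPKM) markers and lowest for ventricular cardiomyocyte markers (9736 FPKM).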

How the data were processed

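RNA-seq of 3 Chow and 3 HFpEF mouse hearts was examined, grouped by the sample titles. As the study's methods and the labels say, the authors aligned reads with HISAT2 to GRCm38 (mm10) and counted them with featureCounts. The deposited values are FPKM for 54532 genes, of which 54495 are in GENCODE M21. The formula was not given in the sources used here. Reads were recovered as FPKM times union exon length over the step of each library, and 96.1% to 96.2% of values above 0 were whole at a relative tolerance of 1e-06. Rescaling by the median of ratios gave factors near 1. The library sizes that the deposited FPKM imply are not the read totals.

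log2(FPKM + 0.1) of the values rescaled by the median of ratios was fitted with limma 3.58.1 (R 4.3.3, trend and robust options). Genes with at least 0.5 FPKM in at least 3 libraries were tested, with Benjamini-Hochberg adjustment over all of them. On simulated data, 197 of 200 genes with a log2 change of 3 and 7 unchanged genes were called among 13824. The simulation gave every gene the same dispersion and held no outlying library. It checked the procedure and does not measure the power of the fit in these data. Exact permutation of 3 against 3 mice cannot go below p = 0.1 and was not used. The members and gene lists were chosen with earlier results of these data known. Named genes are the 9 members, up to 6 genes per list with the largest change among those with an unadjusted p under 0.05 and non-overlapping groups, paralogs and receptors, the 4 most abundant markers per list, and the 3 genes most like each tested member. Other named genes, and the atrial list, were chosen after their values were seen. Alternatives were FPKM as deposited, quantile normalization, other pseudocounts, filters and limma options, voom on recovered reads, a replicate block, and leaving out each library. They were added for the partner and marker lists, as was scaling to recovered reads for every list, after the values were seen. Results for some of the listed marker genes are not reported here.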

Additional observations from a re-analysis of the deposited data

How the results depend on the processing

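Of the 8 DEGs, 7 had no Chow library at the FPKM minimum and passed it only through HFpEF. The number of DEGs was sensitive to the processing, whereas the counts for positive acute-phase genes were within 1.5 times of 7 higher and 0 lower in every alternative run. The 8 higher DEGs became 2 with a pseudocount of 1, 3 with 0.01, 5 with an FPKM minimum of 1, 0 with voom on recovered reads, 15 without the trend and robust options, 25 scaled to recovered reads, 16 scaled to recovered nuclear reads and 2 to 47 when 1 library was left out (47 without HFpEF replicate 3). The 0 lower DEGs became 1 with quantile normalization, 1 with no filter, 4 without the trend and robust options, 1 with either scaling to reads and 0 to 12 when 1 library was left out. At an unadjusted p, 1452 tested genes were higher and 1868 lower, and by voom 1445 and 1905. The alternatives for the liver-type secreted genes were run only with Rbp4 in the list, so no count of higher genes is given for them. That count moved by over 1.5 times with no filter and with either scaling to reads. The lower genes of this list numbered 1 with either scaling to reads and 1 to 2 with 1 library left out. The signalling genes higher numbered 4 to 18, and those lower 0 to 1, with 1 library left out, and those lower were 0 with quantile normalization and 0 without the trend and robust options. Scaled to recovered reads and to nuclear reads, the signalling genes higher numbered 22 and 20 and those lower 0 and 0. The read scalings leave the median of all tested genes above 0, as given above. No cause was tested otherwise.

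With the replicate block, the higher DEGs numbered 2 and the lower signalling genes 0, and no other count given here moved by over 1.5 times. Same-numbered libraries did not deviate together (r = -0.0406, -0.073 and -0.0573), and the labels name no pairing by number. With 3 libraries per group, each centred on its group mean, these values cannot exclude a pairing.

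The log2 differences of the 9 genes kept their direction in every alternative run, except that of Lrg1, which was 0.10 when scaled to recovered reads. They moved with the pseudocount where reads were few. With a pseudocount of 1, those of Hp, Pon1 and Saa3 were 3.37, 0.70 and 0.82, against 4.57, 2.71 and 2.28 with 0.1, and those of Lcn2, Orm1 and Hpx were 0.47, 0.28 and -0.14, against 1.04, 1.51 and -0.72. With 0.01 those of Pon1, Saa3, Orm1 and Hpx were 5.76, 3.59, 4.17 and -1.34. As a ratio of group means that of Saa3 was 4.26, and with quantile normalization that of Hpx was -1.30, against -0.72. Few reads limit Pon1, Saa3, Orm1 and Hpx, and 3 mice per group limit every comparison.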

Other observations

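Some genes with too few libraries above the FPKM minimum to be tested had high values in 1 or 2 of the HFpEF hearts, and they were chosen after their values were seen. Hamp, which encodes the iron hormone hepcidin, had 0, 0 and 1 reads in Chow and 232, 63 and 0 reads in HFpEF replicates 1, 2 and 3, or 40.9, 9.07 and 0 FPKM in HFpEF. Bmp10, a ligand made by right atrial cardiomyocytes, had 148.2 FPKM in HFpEF replicate 1 and at most 0.0263 FPKM in any other library. Ucp1, the uncoupling protein of brown adipocytes, had 6.00 and 8.33 FPKM in HFpEF replicates 1 and 2 and was listed at 0 in the other 4 libraries.

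The cytokine genes differed in which library was highest. Il6 had 0, 3 and 0 reads in Chow and 0, 6 and 46 reads in HFpEF. Il1b had 3, 5 and 3 reads in Chow and 12, 7 and 169 reads in HFpEF. Tnf had 0.643, 0.988 and 0.202 FPKM in Chow and 0.441, 0.072 and 0.379 FPKM in HFpEF, so its highest library was Chow replicate 2. Ptx3, a pentraxin made at sites of inflammation, had 0.0925 to 0.340 FPKM in Chow and 1.02, 0.440 and 2.66 FPKM in HFpEF, so its groups did not overlap. Itih2, a partner of Itih4 in the inter-alpha-inhibitor family, had 0.127, 0.0514 and 0.175 FPKM in Chow and 1.76, 0.338 and 1.08 FPKM in HFpEF, the same order of HFpEF mice as Itih4 and Rbp4.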
